A study of Mus musculus with 12 samples.

Results

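The genes of DNA replication and of entry into S phase were followed here through activation of mouse natural killer (NK) cells. The 44 genes were chosen by symbol, and each matched 1 of the 50674 rows of the deposited count table. They cover the loading and firing of the replicative helicase, the polymerases with their primase and sliding clamp, the enzymes that finish Okazaki fragments, nucleotide supply, the cyclins and E2F factors of the G1/S step, and chromatin assembly behind the fork. All 44 passed the filter on low counts that left 17457 genes for testing, and their counts in a library ran from 10 to 4020.

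The cells came from the spleens of C57BL/6 mice, were expanded in interleukin-2, and their polyadenylated RNA was sequenced. The 4 groups of 3 libraries were Mirc11-/- cells stimulated for 6 h through NKG2D, an activating receptor of NK cells, Mirc11-/- cells left untreated, wild-type cells stimulated for 6 h, and wild-type cells left untreated. Mirc11 is a cluster of microRNA genes, and the labels name its deletion without saying whether it is carried in every cell or only in NK cells. The submitters call the replicates biological, but nothing ties a library to its own animal and no age or sex is given in the sources used here. P-values therefore measure the spread between these libraries, which may be partly technical. All groups share the interleukin-2 expansion, and no unexpanded cells were among the samples.

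Before S phase, a cell in G1 loads the MCM helicase onto its replication origins, a step called licensing, which needs the origin recognition complex together with Cdc6 and Cdt1. Cyclin E and its kinase then help to release E2F transcription factors from the retinoblastoma protein, and E2F factors drive the transcription of many genes of DNA synthesis. NK cells growing in interleukin-2 divide, so these genes are read in cultures that hold cells at different stages of the cycle. In bulk RNA, fewer cells in a stage and less RNA per cell cannot be told apart.

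The libraries held 16275766 to 18181126 counts in stimulated Mirc11-/- cells, 15139281 to 18528612 in unstimulated Mirc11-/- cells, 20009512 to 22146334 in stimulated wild-type cells and 18892771 to 25342991 in unstimulated wild-type cells. Levels are given as CPM, counts divided by the library size after scaling with TMM factors, and differences are log2 fold changes with the standard error (SE) of edgeR's quasi-likelihood fit. A gene was called at a Benjamini-Hochberg adjusted p of 0.05 over all 17457 genes. All 10 NK markers examined were among the tested genes and had counts. Their summed level was 4780 to 7390 CPM in stimulated Mirc11-/- libraries, 12300 to 13400 in unstimulated Mirc11-/- libraries, 8290 to 9680 in stimulated wild-type libraries and 11400 to 13700 in unstimulated wild-type libraries. The 6 B-cell markers summed to 102 to 113 CPM, 64.2 to 73.2, 105 to 128 and 57.1 to 71.9 in the same order of groups, and the 6 dendritic-cell markers to 22.3 to 33.0, 10.5 to 14.1, 24.8 to 28.4 and 10.1 to 14.8. The sums of the B-cell and dendritic-cell lists were thus higher, and that of the NK list lower, in the stimulated libraries. A few genes carried them: Gzmb and Prf1 the NK sum, Ighm the B-cell sum and Zbtb46 the dendritic-cell sum. In the same order the 10 T-cell markers summed to 167 to 182 CPM, 168 to 254, 122 to 172 and 114 to 173. The 8 macrophage and monocyte markers summed to 41.7 to 46.0, 34.8 to 78.4, 47.0 to 78.0 and 39.5 to 77.2. These 2 sums overlapped between states in both genotypes. The neutrophil sum and the erythroid and platelet sum were at most 5.22 CPM in any library. Of the 10 NK markers, 6 were called lower and 1 higher with stimulation in Mirc11-/- cells, where 22.1% of all tested genes were lower and 23.5% higher. In wild-type cells 6 were called lower and 2 higher, where 15.7% of all tested genes were lower and 16.1% higher. Tbx21, a transcription factor of NK cells, was called higher in both, and Klrk1, which codes for NKG2D itself, in wild-type cells. The part of these markers in the results was not tested. None of the markers in any of these lists was at 0 in all libraries.

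Most of the replication genes were lower in stimulated than in unstimulated libraries in both genotypes. In Mirc11-/- cells 39 of the 44 fell and 0 rose, where 22.1% of all tested genes fell and 23.5% rose. In wild-type cells 38 of the 44 fell and 0 rose, where 15.7% of all tested genes fell and 16.1% rose. The median log2 fold change of the 44 genes was -0.88 in Mirc11-/- cells and -0.75 in wild-type cells, beside 0.03 and 0.02 over all genes tested. When the test asked for a change of more than 1.5-fold, 24 genes fell in Mirc11-/- cells, against a background of 4.94%, and 14 fell in wild-type cells, against 2.58%. By that test 0 rose in either genotype, where 9.54% and 3.83% of all genes did. The 3 stimulated libraries lay below all 3 unstimulated ones for 39 genes in Mirc11-/- cells, where 26.2% of all genes did so, and for 38 genes in wild-type cells, where 24.1% did. They lay above all unstimulated ones for 0 genes in Mirc11-/- cells, where 27.9% of all genes did so, and for Gins4 and Rfc2 in wild-type cells, where 24.9% did. With 1 library left out, the number called lower was 38 to 40 in Mirc11-/- cells and 32 to 39 in wild-type cells. The wild-type calls lost in some of these fits were those of Ccne2, Dut, Gmnn, Prim1, Rfc5 and Slbp, all 6 of them without the third unstimulated library (edgeR adjusted p up to 0.121).

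**Figure D1:**
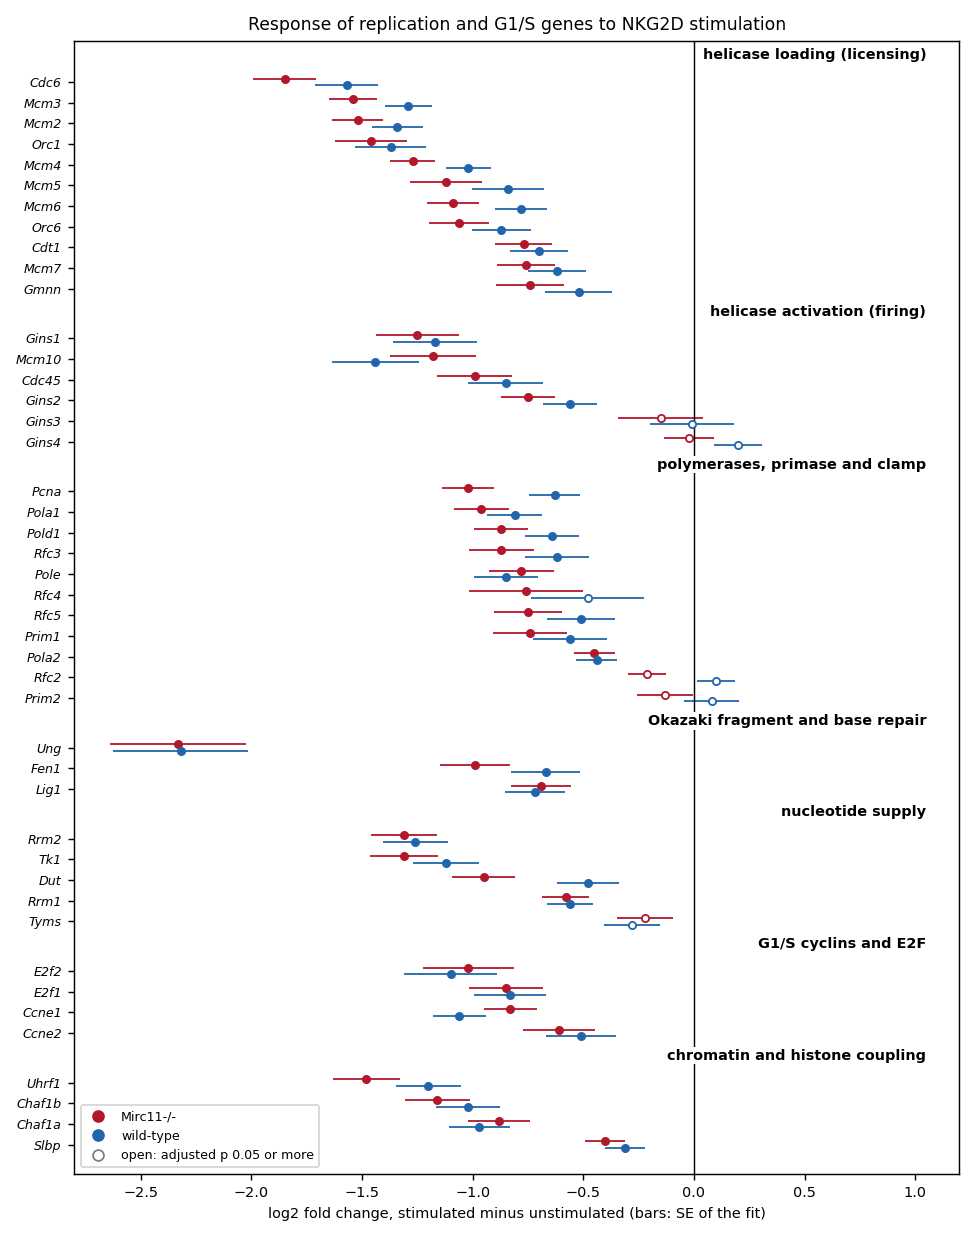
Log2 fold change of stimulated over unstimulated cells for each of the 44 genes, grouped by role, with bars of 1 SE and open points where the adjusted p was 0.05 or more, in Mirc11-/- cells (red) and wild-type cells (blue), with 3 libraries in each group. Values run from -2.33 to -0.02 in Mirc11-/- cells and from -2.32 to 0.20 in wild-type cells, with Ung lowest in both and Gins4 highest in both.

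The fall was present at the level of whole libraries. The mean log2 CPM of the 44 genes was 3.86, 4.20 and 4.06 in the stimulated Mirc11-/- libraries, against 4.78, 5.11 and 4.99 in the unstimulated Mirc11-/- libraries. It was 3.97, 3.90 and 4.05 in the stimulated wild-type libraries, against 4.76, 4.61 and 4.87 in the unstimulated wild-type libraries. Stimulated and unstimulated libraries did not overlap, while the 2 genotypes overlapped within the stimulated state and within the unstimulated state. The summed level of the 44 genes was 943 to 1180 CPM in stimulated Mirc11-/- cells, against 1750 to 2200 CPM in unstimulated Mirc11-/- cells. In wild-type cells it was 991 to 1100 CPM with stimulation, against 1570 to 1830 CPM without.

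**Figure D2:**
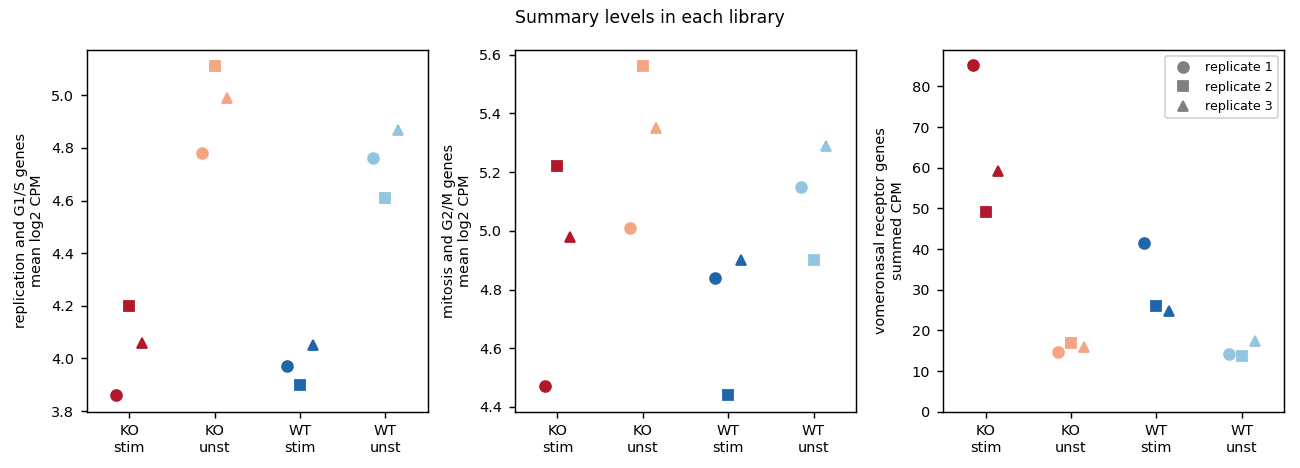
Mean log2 CPM of the 44 replication genes (left) and of 25 mitosis and G2/M genes (middle), and summed CPM of vomeronasal receptor genes (right), with 1 point per library, its shape giving the replicate; KO stands for Mirc11-/-, WT for wild-type, stim for stimulated and unst for unstimulated. For the replication genes every stimulated library, at 3.86 to 4.20, sits below every unstimulated one, at 4.61 to 5.11. The mitosis genes of the same libraries overlap between stimulated and unstimulated Mirc11-/- cells, and in wild-type cells the 2 states only meet, at 4.90.

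Another set of genes moved with stimulation. Vomeronasal receptor genes, which code for pheromone receptors of sensory neurons, summed to 85.4, 49.1 and 59.1 CPM in the stimulated Mirc11-/- libraries, against 14.6, 17.0 and 15.9 CPM in the unstimulated Mirc11-/- libraries. They summed to 41.5, 26.1 and 24.8 CPM in the stimulated wild-type libraries, against 14.2, 13.6 and 17.4 CPM in the unstimulated wild-type libraries. This level does not overlap between stimulated and unstimulated libraries in either genotype. When it was added to the fit as a covariate, a choice made with these data known, 4 replication genes were still called lower in Mirc11-/- cells (Mcm3, Mcm4, Cdc6 and E2f1) and 21 in wild-type cells. Their median log2 fold change was -0.78 in Mirc11-/- cells and -0.65 in wild-type cells in that fit, and over all genes 263 and 1864 were called lower. The covariate and the stimulation cannot be told apart in this design.

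Promoter sequence was compared with the expression data because many of these genes moved together. RefSeq promoter windows of assembly GRCm38.p6, 250 bases before to 50 bases after the start of transcription, were at hand for 35 of the 44 genes. They were searched on both strands for 4 spellings of the E2F consensus, TTTCCCGC, TTTCGCGC, TTTGCCGC and TTTGGCGC. At least 1 match was present for 14 of the 35 genes (40.0%), against 479 of the 10734 tested genes with a window (4.5%). Of the 14, 13 were called lower with stimulation in both genotypes, and the exception was Gins3. Of the 21 genes with a window and no match, 20 were called lower in Mirc11-/- cells. A match describes the letters only, and the table of promoters is not complete.

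Stretches of 150 bases are shown for 4 genes that fell in both genotypes and for Gins3, which did not. They are written 5′ to 3′ in the direction of transcription, with matches to the consensus on either strand in capitals. Mcm5 and Mcm6 each hold an overlapping pair of matches on opposite strands, and Mcm6 holds a further match downstream of it. The Mcm5 stretch is chr8:75109346-75109495 on the plus strand and ends 14 bases before the start. The other stretches end at the base before the start: Mcm6 at chr1:128359706-128359855 on the minus strand, Cdc6 at chr11:98908001-98908150 on the plus strand, Orc1 at chr4:108579304-108579453 on the plus strand and Gins3 at chr8:95633409-95633558 on the plus strand.
Mcm5: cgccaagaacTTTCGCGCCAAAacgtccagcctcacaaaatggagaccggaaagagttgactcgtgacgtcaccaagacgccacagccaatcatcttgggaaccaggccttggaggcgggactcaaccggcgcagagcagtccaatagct
Mcm6: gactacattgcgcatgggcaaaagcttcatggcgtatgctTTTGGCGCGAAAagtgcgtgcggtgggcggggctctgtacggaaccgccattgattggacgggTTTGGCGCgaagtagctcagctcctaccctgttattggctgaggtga
Cdc6: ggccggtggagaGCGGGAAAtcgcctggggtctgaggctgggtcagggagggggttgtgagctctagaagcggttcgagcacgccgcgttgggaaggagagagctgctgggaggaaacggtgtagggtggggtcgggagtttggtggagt
Orc1: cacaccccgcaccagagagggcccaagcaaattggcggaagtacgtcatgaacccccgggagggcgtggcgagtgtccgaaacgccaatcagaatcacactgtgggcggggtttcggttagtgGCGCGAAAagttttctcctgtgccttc
Gins3: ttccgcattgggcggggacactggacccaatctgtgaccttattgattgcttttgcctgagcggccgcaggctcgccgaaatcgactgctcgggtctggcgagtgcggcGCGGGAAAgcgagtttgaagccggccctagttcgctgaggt

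The licensing genes fell in both genotypes. All 11 were called lower in Mirc11-/- and in wild-type cells, with median log2 fold changes of -1.12 and -0.87, and 8 and 5 of them passed the 1.5-fold test. Of all tested genes, 22.1% and 15.7% were called lower, and 4.94% and 2.58% were lower by the 1.5-fold test. The same shares stand beside the counts of every role below. Cdc6 acts with the origin recognition complex to load the helicase onto origin DNA and had the largest change of the group. Its level was 5.51, 5.36 and 5.28 CPM in stimulated Mirc11-/- libraries, against 15.8, 21.3 and 21.3 CPM in unstimulated Mirc11-/- libraries, a log2 fold change of -1.85 ± 0.144 (SE; edgeR adjusted p = 6.16e-07). In wild-type cells it was 4.75, 5.35 and 5.08 CPM with stimulation, against 15.7, 12.7 and 16.5 CPM without, a log2 fold change of -1.57 ± 0.143 (SE; edgeR adjusted p = 3.57e-06). The stimulated libraries of the genotypes overlapped with each other, and every one of them lay below every unstimulated library. Cdc6 lies at chr11:98907801-98923940 on the plus strand of GRCm38, and its promoter stretch above carries a single match. The RefSeq start used for that stretch lies inside the span that GENCODE vM21 gives the gene.

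The 6 subunits of the MCM helicase, which unwinds DNA at the fork, were all called lower in both genotypes, and differences between subunits were not tested. Mcm3 averaged 29.7 ± 3.84 CPM in stimulated Mirc11-/- cells and 86.1 ± 6.76 CPM in unstimulated Mirc11-/- cells (SD, n = 3 each), a log2 fold change of -1.54. In wild-type cells it averaged 29.5 ± 1.91 CPM with stimulation and 72.2 ± 6.89 CPM without, a log2 fold change of -1.29. Mcm2 changed by -1.52 in Mirc11-/- cells and -1.34 in wild-type cells on the log2 scale. The smallest change was that of Mcm7, at -0.76 and -0.62, and Mcm4 (-1.27 and -1.02), Mcm5 (-1.12 and -0.84) and Mcm6 (-1.09 and -0.78) lay between. Mcm7 averaged 40.8 ± 7.57 CPM in stimulated and 69.4 ± 8.25 CPM in unstimulated Mirc11-/- cells (SD, n = 3 each). Of the 31-base words of Mcm7, 33.4% also occur in other genes, and its exons overlap Ap4m1 and Cops6, so its count is uncertain. The largest such share among the other subunits was 5.3%, for Mcm4.

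Per kilobase of merged exon, the subunits were also unequal in level. Mcm6 was highest in all 4 groups, at 17.1 CPM per kilobase in stimulated Mirc11-/- cells, 36.4 in unstimulated Mirc11-/- cells, 17.2 in stimulated wild-type cells and 29.6 in unstimulated wild-type cells. Mcm2 was lowest in all 4, at 4.04, 11.6, 3.71 and 9.37 in the same order. The lengths count every annotated exon, so a gene with long minor isoforms is understated.

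Among the other licensing genes, Orc1, an ATPase subunit of the origin recognition complex, averaged 3.58 ± 0.160 CPM in stimulated and 9.86 ± 1.45 CPM in unstimulated Mirc11-/- cells (SD, n = 3 each; log2 fold change -1.46). In wild-type cells Orc1 averaged 3.25 ± 0.605 CPM with stimulation and 8.39 ± 0.457 CPM without (log2 fold change -1.37). Orc6, another subunit of that complex, changed by -1.06 in Mirc11-/- cells and -0.87 in wild-type cells. Cdt1, which escorts the helicase to the origin, changed by -0.77 and -0.70. Gmnn, which codes for geminin, the inhibitor of Cdt1, changed by -0.74 and -0.52, so both the loader and its inhibitor were called lower.

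Of the 6 genes whose products switch the loaded helicase on, 4 fell in each genotype (Mcm10, Cdc45, Gins1 and Gins2), and Gins3 and Gins4 were not called. Cdc45 and the 4 GINS subunits join MCM to form the active helicase, and Mcm10 is needed for its activation. Mcm10 was at 8.87, 11.8 and 9.27 CPM in stimulated Mirc11-/- libraries, against 17.0, 27.2 and 23.7 CPM in unstimulated Mirc11-/- libraries (log2 fold change -1.18 ± 0.193, SE; edgeR adjusted p = 0.00029). It was at 6.89, 5.81 and 7.67 CPM in stimulated wild-type libraries, against 19.3, 14.3 and 21.7 CPM in unstimulated wild-type libraries (log2 fold change -1.44 ± 0.196, SE; edgeR adjusted p = 0.000114). Neither pair of groups overlapped, and all 3 stimulated Mirc11-/- libraries were above all 3 stimulated wild-type libraries.

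The GINS complex has 4 subunits, of which Gins1 and Gins2 were called lower, and differences between them were not tested. Gins1 changed by -1.25 ± 0.189 in Mirc11-/- cells and -1.17 ± 0.188 in wild-type cells (SE), and Gins2 by -0.75 ± 0.123 and -0.56 ± 0.122. Gins3 changed by -0.15 ± 0.192 and -0.01 ± 0.190 (edgeR adjusted p = 0.553 and 0.970). Gins4 was at 14.5, 17.7 and 19.0 CPM in stimulated Mirc11-/- libraries, against 18.0, 16.7 and 17.3 CPM in unstimulated Mirc11-/- libraries. It was at 19.6, 21.9 and 18.4 CPM in stimulated wild-type libraries, against 18.2, 17.8 and 16.2 CPM in unstimulated wild-type libraries. The log2 fold change of Gins4 was -0.02 ± 0.113 in Mirc11-/- cells (SE; edgeR adjusted p = 0.878) and 0.20 ± 0.110 in wild-type cells (SE; edgeR adjusted p = 0.185). Its libraries overlapped in Mirc11-/- cells, while every stimulated wild-type library was above every unstimulated one. Of the 31-base words in the Gins2 transcripts, 66.2% also occur in other genes, Gse1 among them, so the Gins2 count is uncertain.

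**Figure D3:**
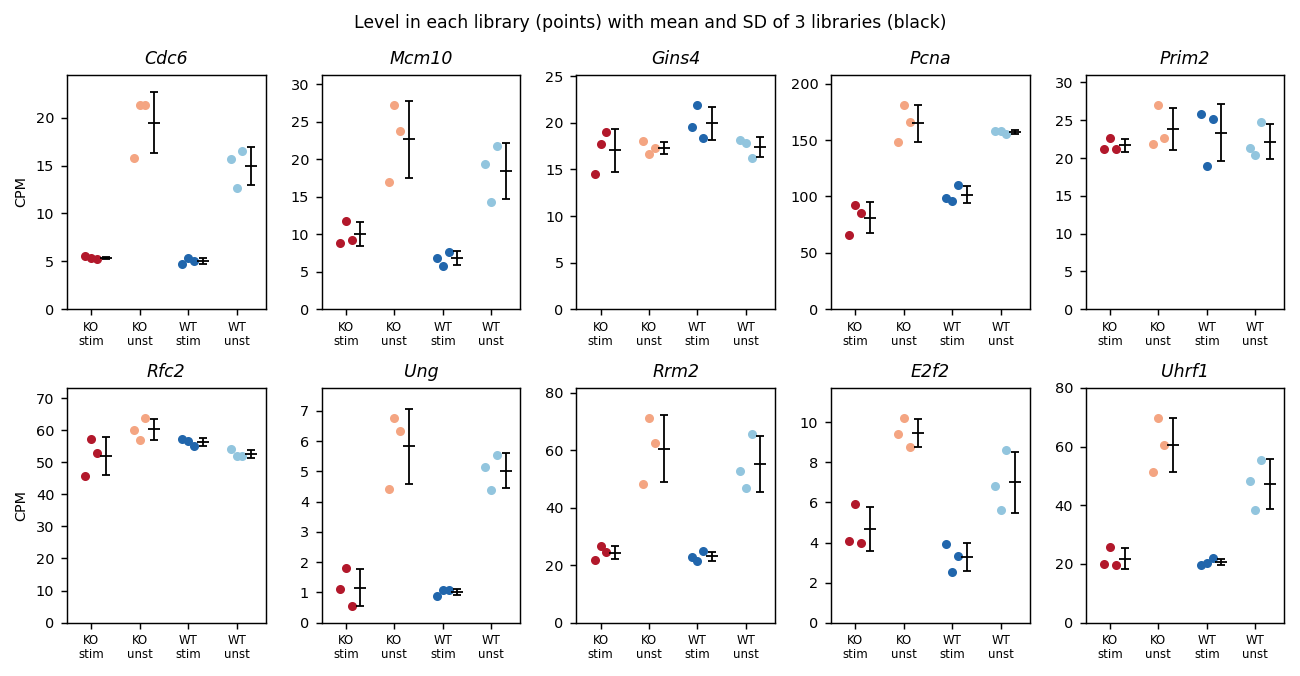
Level in CPM of 10 genes in each of the 12 libraries (points), with the mean and SD of 3 libraries in black; KO stands for Mirc11-/- and WT for wild-type, stim for stimulated and unst for unstimulated. Cdc6, Ung, Rrm2 and Uhrf1 separate stimulated from unstimulated libraries in both genotypes, while the Prim2 libraries overlap in both.

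Of 11 polymerase, primase and clamp genes, 9 were called lower in Mirc11-/- cells and 8 in wild-type cells, with median log2 fold changes of -0.76 and -0.56. By the 1.5-fold test 3 and 0 were lower, beside 4.94% and 2.58% of all tested genes. The 0 in wild-type cells is near that share. The catalytic subunits were all called lower in both genotypes: Pola1 of the initiating polymerase alpha by -0.96 and -0.81, Pold1 of the lagging-strand polymerase delta by -0.87 and -0.64, and Pole of the leading-strand polymerase epsilon by -0.78 and -0.85. Pola2, the accessory subunit of polymerase alpha, changed by -0.45 and -0.44. Prim1, the catalytic primase subunit that makes the RNA primer, changed by -0.74 and -0.56. Its partner Prim2 was at 21.2, 22.7 and 21.2 CPM in stimulated Mirc11-/- libraries, against 21.9, 27.0 and 22.6 CPM in unstimulated Mirc11-/- libraries, and at 25.8, 19.0 and 25.2 CPM in stimulated wild-type libraries, against 21.3, 20.4 and 24.8 CPM in unstimulated wild-type libraries. Its log2 fold changes of -0.13 ± 0.127 and 0.08 ± 0.125 (SE; edgeR adjusted p = 0.411 and 0.684) did not pass the test, and the difference between Prim1 and Prim2 was not tested.

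Pcna codes for the sliding clamp that holds the polymerases on DNA and had the largest change of this role in Mirc11-/- cells, while in wild-type cells that of Pole was largest. It was at 65.8, 92.4 and 85.4 CPM in stimulated Mirc11-/- libraries, against 148, 181 and 166 CPM in unstimulated Mirc11-/- libraries (log2 fold change -1.02 ± 0.117, SE; edgeR adjusted p = 1.65e-05). It was at 98.9, 95.7 and 110 CPM in stimulated wild-type libraries, against 158, 158 and 155 CPM in unstimulated wild-type libraries (log2 fold change -0.63 ± 0.115, SE; edgeR adjusted p = 0.00108). All 3 stimulated Mirc11-/- libraries lay below all 3 stimulated wild-type libraries, and the unstimulated libraries of the genotypes overlapped.

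The clamp is loaded by replication factor C, and 4 of its subunits were among the 44 genes. Rfc3 and Rfc5 were called lower in both genotypes, with log2 fold changes of -0.87 and -0.75 in Mirc11-/- cells and -0.62 and -0.51 in wild-type cells. Rfc4 averaged 6.26 ± 2.43 CPM in stimulated and 10.6 ± 1.77 CPM in unstimulated Mirc11-/- cells (SD, n = 3 each), and was called lower there (log2 fold change -0.76, edgeR adjusted p = 0.0276) but not in wild-type cells (-0.48, adjusted p = 0.171). The Mirc11-/- call of Rfc4 was lost without the first stimulated library (adjusted p = 0.0602) or without the second or the third unstimulated library (0.0812 and 0.0732). Rfc2 was at 45.7, 57.3 and 53.0 CPM in stimulated Mirc11-/- libraries, against 60.2, 57.0 and 63.7 CPM in unstimulated Mirc11-/- libraries (log2 fold change -0.21 ± 0.0860, SE; edgeR adjusted p = 0.0565). It was at 57.4, 56.7 and 55.1 CPM in stimulated wild-type libraries, against 54.1, 51.9 and 52.1 CPM in unstimulated wild-type libraries (log2 fold change 0.10 ± 0.0855, SE; edgeR adjusted p = 0.412). The Mirc11-/- groups of Rfc2 overlapped, and the wild-type ones did not, with stimulation higher. Of the 31-base words of Rfc2, 19.4% also occur in other genes, and its exons overlap Lat2, so its count is uncertain.

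Of the Okazaki fragment and base repair genes, all 3 fell in both genotypes. Ung, the uracil DNA glycosylase that removes uracil from DNA, had the largest change of the 44 genes in both genotypes and the lowest mean level in stimulated cells. It had 19, 31 and 10 counts in stimulated Mirc11-/- libraries, against 80, 107 and 108 counts in unstimulated Mirc11-/- libraries. It had 19, 21 and 21 counts in stimulated wild-type libraries, against 131, 80 and 138 counts in unstimulated wild-type libraries. The log2 fold change was -2.33 ± 0.307 in Mirc11-/- cells (SE; edgeR adjusted p = 5.24e-05) and -2.32 ± 0.305 in wild-type cells (SE; edgeR adjusted p = 8.47e-05), 5.03-fold and 4.98-fold lower. No stimulated library reached the lowest unstimulated one in either genotype, and the stimulated libraries of the genotypes overlapped. Ung lies at chr5:114130386-114139323 on the plus strand of GRCm38.

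Fen1, the flap endonuclease that trims Okazaki fragments, changed by -0.99 in Mirc11-/- cells and -0.67 in wild-type cells. Of its 31-base words, 79.6% also occur in other genes, the gene model Gm10143 among them, so its count is uncertain. Lig1, the ligase that seals the fragments, averaged 29.0 ± 2.41 CPM in stimulated and 46.9 ± 3.53 CPM in unstimulated Mirc11-/- cells (SD, n = 3 each), a log2 fold change of -0.69, and changed by -0.72 in wild-type cells.

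In nucleotide supply, 4 of 5 genes fell in each genotype. Rrm2, the small subunit of ribonucleotide reductase, was at 21.9, 26.7 and 24.6 CPM in stimulated Mirc11-/- libraries, against 48.1, 71.1 and 62.5 CPM in unstimulated Mirc11-/- libraries (log2 fold change -1.31 ± 0.148, SE; edgeR adjusted p = 1.59e-05). It was at 22.8, 21.6 and 24.8 CPM in stimulated wild-type libraries, against 52.9, 47.0 and 65.8 CPM in unstimulated wild-type libraries (log2 fold change -1.26 ± 0.147, SE; edgeR adjusted p = 3.34e-05). Stimulated libraries were under every unstimulated one in both genotypes and overlapped between genotypes. Rrm1, the large subunit of the same enzyme, changed by -0.58 in Mirc11-/- cells and -0.56 in wild-type cells, less than Rrm2 in each, a difference between the genes that was not tested.

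Tk1, the thymidine kinase of the salvage route, changed by -1.31 in Mirc11-/- cells and -1.12 in wild-type cells. Dut, the dUTPase that keeps uracil out of DNA, changed by -0.95 and -0.48. Tyms, thymidylate synthase of the de novo route, averaged 35.2 ± 1.47 CPM in stimulated and 40.9 ± 6.33 CPM in unstimulated Mirc11-/- cells, and 31.6 ± 3.69 CPM in stimulated and 38.4 ± 5.38 CPM in unstimulated wild-type cells (SD, n = 3 each). Its log2 fold changes of -0.22 ± 0.126 and -0.28 ± 0.125 (SE; edgeR adjusted p = 0.177 and 0.102) did not pass the test.

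All 4 G1/S cyclin and E2F genes fell in both genotypes, with median log2 fold changes of -0.84 in Mirc11-/- cells and -0.94 in wild-type cells. E2f2, an activating E2F factor, was at 4.06, 5.94 and 3.99 CPM in stimulated Mirc11-/- libraries, against 9.44, 10.2 and 8.78 CPM in unstimulated Mirc11-/- libraries (log2 fold change -1.02 ± 0.206, SE; edgeR adjusted p = 0.00132). It was at 3.91, 2.55 and 3.35 CPM in stimulated wild-type libraries, against 6.83, 5.60 and 8.62 CPM in unstimulated wild-type libraries (log2 fold change -1.10 ± 0.209, SE; edgeR adjusted p = 0.00135). Each Mirc11-/- group lay wholly above its wild-type counterpart, and stimulated libraries were below unstimulated ones in both. E2f1, the other activator, changed by -0.85 and -0.83. Cyclin E1 (Ccne1) changed by -0.83 in Mirc11-/- cells and -1.06 in wild-type cells, and cyclin E2 (Ccne2) by -0.61 and -0.51. In wild-type cells the call of Ccne2 was lost without the first or the second stimulated library, or without the first or the third unstimulated library.

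The 4 genes of chromatin assembly and histone coupling fell in both genotypes too, and 3 of them passed the 1.5-fold test in each. Uhrf1, which brings the maintenance DNA methyltransferase to newly made DNA, was at 19.8, 25.9 and 19.5 CPM in stimulated Mirc11-/- libraries, against 51.2, 69.6 and 60.7 CPM in unstimulated Mirc11-/- libraries (log2 fold change -1.48 ± 0.150, SE; edgeR adjusted p = 6.34e-06). It was at 19.6, 20.4 and 21.9 CPM in stimulated wild-type libraries, against 48.1, 38.5 and 55.3 CPM in unstimulated wild-type libraries (log2 fold change -1.20 ± 0.148, SE; edgeR adjusted p = 5.46e-05). The states did not overlap. Chaf1a and Chaf1b, subunits of the histone chaperone CAF-1 that deposits histones behind the fork, changed by -0.88 and -1.16 in Mirc11-/- cells and by -0.97 and -1.02 in wild-type cells. Slbp, which binds the stem-loop of histone messenger RNA, had the smallest change of this role, -0.40 and -0.31. Of the 31-base words of Chaf1a, 51.0% also occur in other genes, Ubxn6 among them, so its count is uncertain.

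The responses of the genotypes were set side by side, and the difference between them was tested directly. Of the 44 genes, 38 were called lower in both genotypes, Rfc4 in Mirc11-/- cells only, and 5 in neither (Gins3, Gins4, Prim2, Rfc2 and Tyms). Past 1.5-fold, 14 were called in both, 10 in Mirc11-/- cells only and 0 in wild-type cells only, but that count does not show a difference. In the interaction 0 of the 44 were called, where the background was 0.0115% lower and 0 higher, and DESeq2 and limma-voom also called 0. At an unadjusted p under 0.05 there were 3 of the 44, a lower share than the 1858 of all 17457 tested genes. They were Rfc2 at -0.31 ± 0.121 (SE; edgeR adjusted p = 0.445), Pcna at -0.39 ± 0.163 (0.448) and Dut at -0.47 ± 0.198 (0.448). The log2 fold change was more negative in Mirc11-/- cells for 37 genes and in wild-type cells for 7. Over all 17457 tested genes it was more negative in Mirc11-/- cells for 9151, with a median difference of -0.02 log2. The median difference over the 44 genes was -0.17 log2. That median was -0.04 without the first stimulated Mirc11-/- library, -0.10 without the second unstimulated Mirc11-/- library, and -0.26 without the second stimulated or the first unstimulated Mirc11-/- library. It was -0.06 with the vomeronasal covariate. The 7 were Mcm10, Pole, Lig1, Tyms, Ccne1, E2f2 and Chaf1a, and the adjusted p of each difference was above the threshold.

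**Figure D4:**
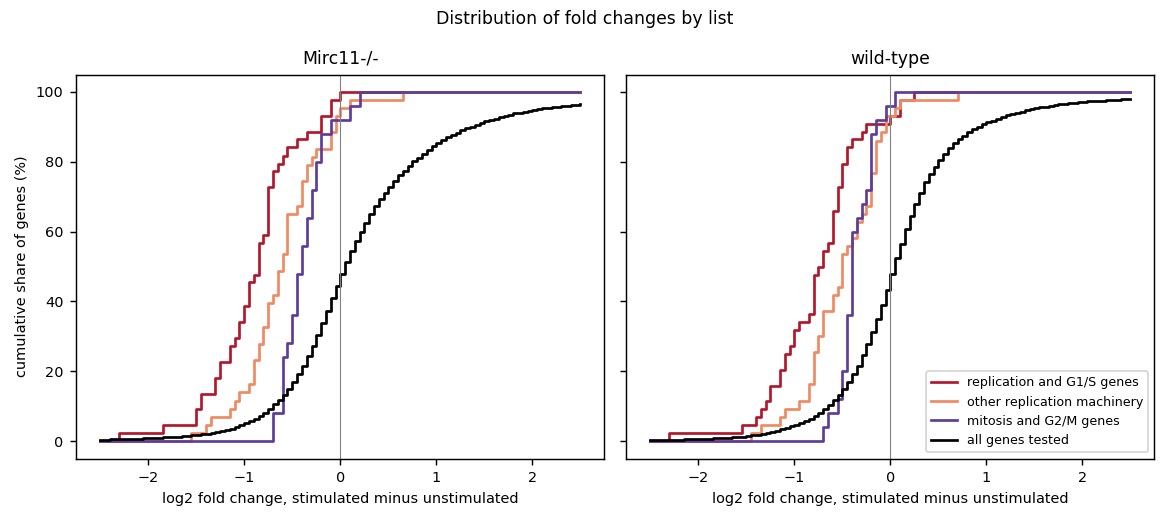
Cumulative share of genes by log2 fold change of stimulated over unstimulated cells, for the 44 replication genes, 43 other genes of the replication machinery, 25 mitosis and G2/M genes and all 17457 tested genes, in Mirc11-/- cells (left) and wild-type cells (right). The 44 genes lie to the left of all genes in both genotypes, with medians of -0.88 and -0.75 beside 0.03 and 0.02.

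Mirc11-/- and wild-type cells were then compared within each state. In stimulated cells 0 of the 44 genes were called, where 3.89% of all genes were higher and 5.13% lower in Mirc11-/- cells, and DESeq2 and limma-voom called 0 as well. At an unadjusted p under 0.05 there were 5 of the 44, a lower share than the 5257 of all 17457 tested genes. Pcna was lower at -0.32 ± 0.116 (SE; edgeR adjusted p = 0.0877), Mcm10 higher in level at 0.56 ± 0.201 (0.0901) and E2f2 at 0.51 ± 0.217 (0.137), all short of the threshold. All Mirc11-/- libraries lay above all wild-type ones for 7 genes, where 15.8% of all genes did so, and below for Pcna, where 16.8% did. The 7, a share of the 44 near that of all genes, were Mcm4, Mcm10, Lig1, Rrm1, Ccne1, E2f2 and Chaf1a. Pcna was called lower without the second stimulated Mirc11-/- library (log2 fold change -0.43, edgeR adjusted p = 0.0370).

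In unstimulated cells 0 of the 44 were called, where 0.309% of all genes were higher and 0.796% lower in Mirc11-/- cells, and DESeq2 and limma-voom also called 0. The estimates leaned to the positive side, with 41 above 0 and 3 below. Of the 44, 12 had an unadjusted p under 0.05, where 1607 of all 17457 tested genes did. The median of the 44 was 0.24 log2, beside 0.01 over all genes. That median was 0.14 without the second unstimulated Mirc11-/- library and ran up to 0.31 with another library left out. Mcm4 had the smallest adjusted p, at 99.9 ± 14.0 CPM in Mirc11-/- cells and 77.2 ± 6.82 CPM in wild-type cells (SD, n = 3 each; log2 fold change 0.37 ± 0.100, SE; edgeR adjusted p = 0.116). Pold1 followed at 45.9 ± 2.50 CPM in Mirc11-/- cells and 35.1 ± 3.69 CPM in wild-type cells (log2 fold change 0.39, edgeR adjusted p = 0.190). The Mirc11-/- libraries lay above all wild-type ones for 10 genes, where 8.87% of all genes did so, and below for 0, where 8.91% did. The 10 were Mcm2, Mcm5, Mcm6, Mcm7, Gins1, Pold1, Rfc2, Dut, E2f2 and Slbp. The unstimulated Mirc11-/- group is also the baseline of the more negative changes given above, so these estimates share libraries. Mcm4 was called higher without the first unstimulated Mirc11-/- library (log2 fold change 0.47, edgeR adjusted p = 0.0374).

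Genes of the pathway outside the 44 were read from 3 further lists. Of 43 other genes of the replication machinery, 35 fell and 1 rose in Mirc11-/- cells and 26 fell and 1 rose in wild-type cells, with medians of -0.62 and -0.51 log2. Over all tested genes 22.1% fell and 23.5% rose in Mirc11-/- cells, and 15.7% fell and 16.1% rose in wild-type cells. The 3 with the smallest p in Mirc11-/- cells were Ssrp1, a subunit of the histone chaperone FACT (-1.19 and -0.87), Tipin of the fork protection complex (-1.37 and -1.10) and Dtl, a substrate receptor of the ubiquitin ligase that degrades Cdt1 (-1.45 and -1.40). The 1 that rose was Pold4, a small subunit of polymerase delta, at 0.62 and 0.70, a gene named after its value was seen.

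Of 32 RB, E2F and G1 regulators, 18 fell and 4 rose in Mirc11-/- cells and 16 fell and 4 rose in wild-type cells. Of all tested genes 22.1% and 15.7% fell. The share that rose was 12.5% of the list in each genotype, below the 23.5% and 16.1% of all tested genes. Myc, a transcription factor that promotes growth and G1 progression, was at 22.9, 20.6 and 21.6 CPM in stimulated Mirc11-/- libraries, against 70.8, 65.5 and 73.1 CPM in unstimulated Mirc11-/- libraries (log2 fold change -1.68 ± 0.141, SE; edgeR adjusted p = 1.11e-06). It was at 29.3, 44.9 and 29.1 CPM in stimulated wild-type libraries, against 70.3, 67.2 and 75.3 CPM in unstimulated wild-type libraries (log2 fold change -1.04 ± 0.137, SE; edgeR adjusted p = 8.08e-05). Ccnd3, cyclin D3, changed by -1.10 and -0.86, and Tfdp1, the partner that E2F factors need to bind DNA, by -1.28 and -1.08. Those that rose, named after their values were seen, were Cdkn1b, which codes for the kinase inhibitor p27 (1.22 and 1.10), Tfdp2, another E2F partner (0.98 and 0.82), Lin37 of the DREAM complex (0.66 and 0.58) and Rbl2, the pocket protein p130 (0.30 and 0.36). Between stimulated genotypes 6 genes of this list were called lower in Mirc11-/- cells and 0 higher (Ccnd2, Cdk6, Cdkn1a, Cdkn2a, Cdkn2b and Myc), where 5.13% of all tested genes were lower and 3.89% higher.

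For the later cell cycle, of 25 mitosis and G2/M genes, 9 fell in Mirc11-/- cells and 4 in wild-type cells, 0 rose in either and 0 passed the 1.5-fold test, with medians of -0.44 and -0.42 log2. The share that fell was 36.0% in Mirc11-/- cells, beside 22.1% of all tested genes, while the 4 in wild-type cells are a share near the 15.7% of all tested genes. All stimulated libraries lay below all unstimulated ones for 5 of the 25 in Mirc11-/- cells, where 26.2% of all genes did so, and for 15 in wild-type cells, where 24.1% did. Mad2l1 of the spindle checkpoint changed by -0.58 and -0.44, the mitotic kinase Aurkb by -0.64 and -0.73, and Cdk1, the kinase that drives entry into mitosis, by -0.71 and -0.54, of which the last was short of the threshold in wild-type cells (edgeR adjusted p = 0.0670). Their mean log2 CPM was 4.47, 5.22 and 4.98 in stimulated and 5.01, 5.56 and 5.35 in unstimulated Mirc11-/- libraries. In wild-type libraries it was 4.84, 4.44 and 4.90 with stimulation and 5.15, 4.90 and 5.29 without. The Mirc11-/- groups overlapped on this measure, and the wild-type groups only met, at 4.90. Those of the 44 replication genes did not overlap in either genotype. The difference in response between these lists was not tested.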

How the data were processed

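Per the submitters' processing notes, the tools were RSEM 1.3.0, Bowtie2 2.2.8, Trim Galore 0.4.1 and bcl2fastq, with genome build GRCm38. The authors deposited 1 table of RSEM expected counts per gene and library, not scaled between libraries, and all its values were already whole numbers. The annotation release and strand setting are not given in the sources used here. Exons of 15 of the 44 genes overlap another gene in GENCODE vM21, so reads of such pairs may be split. For 6 genes over 20% of the 31-base words also occur in other genes: Mcm7, Gins2, Pcna, Fen1, Uhrf1 and Chaf1a. Expected counts were filtered with filterByExpr, scaled with TMM and tested in edgeR 4.0.16 (R 4.3.3) by its quasi-likelihood method with robust dispersions, with 1 mean per group over all 12 libraries. All p-values are two-sided and Benjamini-Hochberg adjusted over 17457 genes, and the 1.5-fold calls come from glmTreat. The steps were tested on simulated data. Alternatives used DESeq2 1.42.0, limma-voom 3.58.1, other scalings and filters, a replicate term, a vomeronasal covariate and 1 library left out. The genes, lists, tests and alternatives were chosen with earlier results of these data known. Values per library are given for the largest change in each role, for genes whose sign differed from their role and for any of the 44 called between genotypes, of which there were 0. From each other list, the 3 called genes with the smallest p for stimulation in Mirc11-/- cells were named. Intervals for single counts are not given, since the replicates carry the error.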

Additional observations from a re-analysis of the deposited data

How the results depend on the processing

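With another scaling, filter, test, dispersion setting or sample set, 38 to 40 of the 44 genes were called lower with stimulation in Mirc11-/- cells and 38 in wild-type cells. The vomeronasal covariate lowered these to 4 and 21. With 1 library left out they were 38 to 40 and 32 to 39, and the interaction called 0 of the 44 in every setting run. Between stimulated genotypes 1 gene, Pcna, was called lower in Mirc11-/- cells without the low-count filter, and 0 to 1 with 1 library left out (Pcna, without the second stimulated Mirc11-/- library). Between unstimulated genotypes 0 to 1 was called higher with 1 library left out (Mcm4, without the first unstimulated Mirc11-/- library). The cause was not tested. The fit of 2 groups alone could not be made for the interaction.

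The replicate numbers were not taken to pair the samples, since same-numbered libraries of different groups correlated weakly once group means were subtracted. These correlations of deviations ran from -0.15 to 0.23, and from -0.07 to 0.23 between the states of the same genotype. Each of the 3 stimulated wild-type libraries correlated best with its own number among the unstimulated ones, as 1 of the 3 stimulated Mirc11-/- libraries did, a hint from the data and not from the design. With the replicate block 39 genes were called lower in Mirc11-/- cells and 38 in wild-type cells. With the block nested in genotype these were 39 and 39, and the interaction called 0.

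Among the stimulation changes, signs turned only for genes not called, apart from Rfc4. With the covariate the log2 fold change in Mirc11-/- cells was 0.54 for Gins3, 0.46 for Gins4, 0.10 for Rfc2 and 0.06 for Rfc4, and in wild-type cells 0.33 for Gins3 and -0.12 for Prim2. With the stricter filter it was 0.02 for Gins4 in Mirc11-/- cells and 0.00 for Gins3 in wild-type cells. With 1 library left out it was -0.12 to 0.08 for Gins4 in Mirc11-/- cells, and -0.14 to 0.10 for Gins3 and -0.01 to 0.19 for Prim2 in wild-type cells. Low counts limit Ung most, with 10 to 31 counts in stimulated libraries.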
